A study of Mus musculus with 12 samples.

Results

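The Ly6 surface protein family was followed through sorted myeloid cells of the mouse bone marrow by its 7 members Ly6c1, Ly6c2, Ly6a, Ly6e, Ly6i, Ly6g and Ly6d. They were chosen by name, as the family members that define or sit beside the surface antigens used to sort these cells. All 7 were matched by symbol among the 56953 Ensembl identifiers of the tables, and each had at least 1 count. RNA came from female C57BL/6J mice of 8 weeks that carried Rank cre/+ and the reporter R26.eYFP fl/+, so all 4 groups share both alleles. The Rank-driven Cre labels macrophages of embryonic origin, which are the eYFP+ macrophages, while the eYFP- macrophages descend from adult hematopoietic stem cells. Ly6Chi and Ly6Clo monocytes of the same genotype were the other groups. Each group had 3 libraries, and whether 3 libraries are 3 separate mice is not stated, so the p-values measure the spread between these samples, which may be technical. Macrophages were sorted from CD45+ cells with low Gr1 as F4/80+ CD206+ VCAM1+ cells. Monocytes were CD11b+ cells, shown within the same low Gr1 gate, that were separated by Ly6C protein.

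Ly6 proteins are short cysteine-rich chains folded into a three-finger domain and tethered to the outer membrane by a glycosylphosphatidylinositol (GPI) anchor. Ly6c1 and Ly6c2 encode the Ly6C antigen, high on monocytes that leave the marrow for inflamed tissue and low on monocytes that patrol vessels. Ly6g encodes the neutrophil antigen Ly6G, Ly6a encodes Sca-1, a surface marker of mouse hematopoietic stem cells, and Ly6d marks lymphoid progenitors that commit to the B lineage. Ly6e is widely expressed and interferon-responsive, and is known as a receptor in placental cell fusion and as a restriction factor of coronaviruses. Ly6i is a less studied relative of Ly6C. Antibodies to Gr1 bind Ly6G and, more weakly, Ly6C, so several members are also antigens of the sort.

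The start of the coding sequence of Ly6c1 and Ly6c2 is printed because it shows how little separates the genes behind the Ly6C antigen. These are coding bases 1 to 120, counted from the start codon, of the principal transcripts of GENCODE M21. Capitals mark the 6 bases that differ.
Ly6c1: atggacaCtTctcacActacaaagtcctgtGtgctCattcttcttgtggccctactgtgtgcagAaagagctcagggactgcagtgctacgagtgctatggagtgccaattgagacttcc
Ly6c2: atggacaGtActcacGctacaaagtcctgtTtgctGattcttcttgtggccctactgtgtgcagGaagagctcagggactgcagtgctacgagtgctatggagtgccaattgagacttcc
Over the whole coding sequence 9 of 396 aligned bases differed, an identity of 97.7%. The next closest pairs were Ly6a with Ly6i at 86.4% and Ly6a with Ly6g at 83.2%. Ly6e and Ly6d lay apart, with 48.5% to 53% identity to the others. Stretches of 50 bases found also in the transcript of another gene made up 36.7% of the Ly6c1 transcript and 33% of the Ly6c2 transcript, and 252 of the 255 shared stretches of Ly6c2 were shared with Ly6c1. The share was 10% for Ly6a, 4.97% for Ly6i and 0.448% for Ly6g, and no stretch was shared for Ly6e or Ly6d. Counts were kept by the authors where a read pair belonged to 1 gene without ambiguity, so the split between Ly6c1 and Ly6c2 is uncertain, and their sum is given as well.

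The 250 bases before the first listed start site are printed for Ly6c1, Ly6c2 and Ly6g. They are the members with a RefSeq promoter in the reference used (3 of 7), and Ly6a, Ly6e, Ly6i and Ly6d are named only. The 3 genes have related upstream sequence, but Ly6c1 and Ly6c2 were highest in Ly6Chi monocytes and Ly6g in Ly6Clo monocytes. Positions are on GRCm38.p6, another build than the GRCm39 of the counts: chr15:75048838-75049087 (minus strand) for Ly6c1, chr15:75111972-75112221 (minus strand) for Ly6c2 and chr15:75155011-75155260 (plus strand) for Ly6g. Each is written on its gene's strand, and capitals mark GAGGAAG, a core motif of PU.1, the transcription factor of the myeloid lineages.
Ly6c1: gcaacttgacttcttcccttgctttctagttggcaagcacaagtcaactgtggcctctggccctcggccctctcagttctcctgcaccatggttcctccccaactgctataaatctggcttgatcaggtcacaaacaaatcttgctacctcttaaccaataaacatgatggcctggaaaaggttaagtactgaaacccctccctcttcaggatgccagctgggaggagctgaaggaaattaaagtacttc
Ly6c2: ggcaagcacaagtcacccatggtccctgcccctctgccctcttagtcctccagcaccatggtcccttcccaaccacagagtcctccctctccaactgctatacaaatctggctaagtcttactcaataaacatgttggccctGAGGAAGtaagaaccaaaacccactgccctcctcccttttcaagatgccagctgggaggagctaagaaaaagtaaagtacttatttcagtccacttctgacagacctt
Ly6g: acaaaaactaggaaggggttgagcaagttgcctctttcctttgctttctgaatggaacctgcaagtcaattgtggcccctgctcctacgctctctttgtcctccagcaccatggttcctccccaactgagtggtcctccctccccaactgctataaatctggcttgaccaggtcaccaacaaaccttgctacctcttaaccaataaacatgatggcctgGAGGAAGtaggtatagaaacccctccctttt
Read on both strands, GAGGAAG began 108 bases before the start site of Ly6c2 and 31 bases before that of Ly6g, and it was not in this window of Ly6c1. RefSeq lists a second start site for each of these genes, and before that of Ly6c1 the motif began 127 bases away; it was also before the other start site of Ly6c2 and of Ly6g. It is in 10.7% of the 32534 promoter windows of the same length. TATAAA, in 12.3% of windows, began 143 bases before the start of Ly6c1 and 99 bases before that of Ly6g. TTGCNNAA, a C/EBP motif found in 9.58% of windows, was in the Ly6g window only, 232 bases before the start on the opposite strand. The gamma-interferon motif TTCNNNGAA (7.04% of windows), the interferon-stimulated response element, which is GAAA, a pair of free bases and GAAA again (2.98%), and the NR4A motif AAAGGTCA (1.35%) were in none of the 3 windows. Aligned locally, the Ly6c1 window was 75.1% identical to that of Ly6g over 229 columns and 72.2% identical to that of Ly6c2 over 227 columns. Matches are descriptions of letters and were not tested for binding.

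Depth was 26390927 to 48618187 counts per library. The 3 replicates of a group were alike in log2 counts of the 2000 genes of highest mean, with Pearson r of 0.988 to 0.990 within Ly6Chi monocytes and 0.874 to 0.957 within eYFP- macrophages. Ly6Clo replicate 2 stood apart from its group (r of 0.653 and 0.697, against 0.969 between the other 2), as did eYFP+ replicate 1 (0.826 and 0.830, against 0.983). The labels matched their markers: the summed level of 6 macrophage genes was 13563 to 20111 TPM (reads per length, scaled so that every library has the same sum) in macrophages and 623.5 to 2551 TPM in monocytes, and that of 6 Ly6Chi genes was 5396 to 7059 TPM in Ly6Chi and 349.3 to 595.5 TPM in Ly6Clo monocytes. Markers of neutrophils and their precursors were present in both monocyte groups, with a summed level over 10 genes of 15735 to 23796 TPM in Ly6Chi and 6758 to 15968 TPM in Ly6Clo monocytes.

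The mixture of Ly6 transcripts differed between Ly6Chi monocytes, Ly6Clo monocytes and macrophages, and was much alike in both macrophage types. Ly6Chi monocytes were dominated by Ly6c2, at 60.3% of the summed TPM of the 7 members on average (57.4% to 62.5%), with Ly6e at 37.0%. The monocytes were sorted on Ly6C protein, so their difference in Ly6c2 share checks the sort and is not a finding. The shares have a common total, so a high Ly6c2 share leaves less for Ly6e. In Ly6Clo monocytes Ly6e made up 90.4% and Ly6i, at 6.73%, was the next member, ahead of Ly6a (1.17%) and Ly6c2 (1.12%). In macrophages Ly6e was nearly alone, at 99.4% in eYFP+ and 98.8% in eYFP- cells. The summed TPM averaged 10353 in Ly6Chi monocytes, 4863 in Ly6Clo monocytes, 2535 in eYFP+ macrophages and 2374 in eYFP- macrophages. Ranked by mean TPM, Ly6c2 was number 9 of all genes in Ly6Chi monocytes and number 13362 in eYFP+ macrophages, whereas Ly6e stayed between number 19 and number 47 in all 4 groups.

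**Figure D1:**
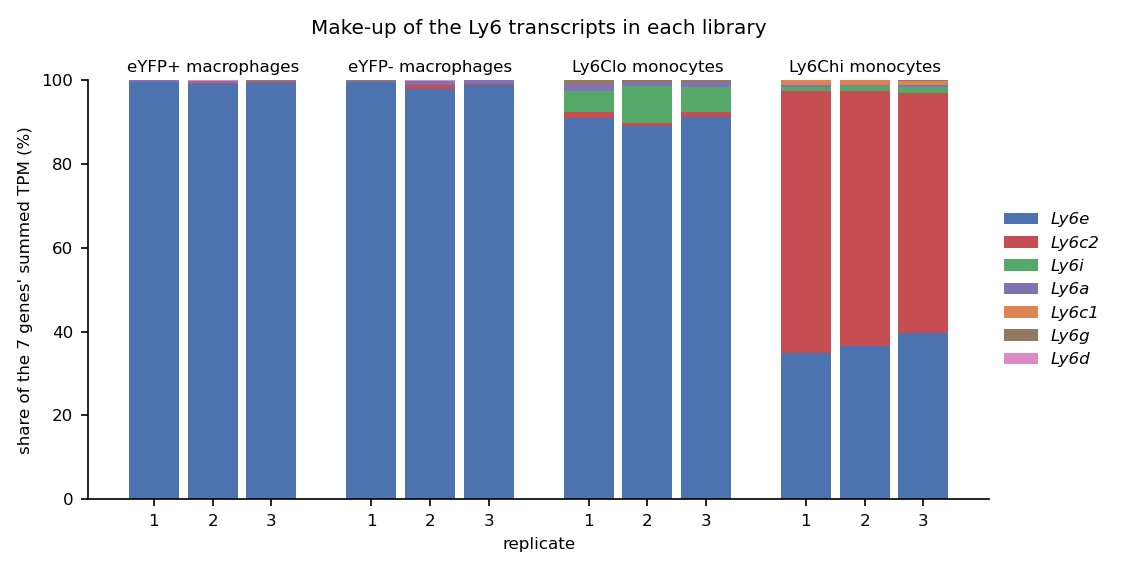
Share of the summed TPM of the 7 Ly6 members (vertical axis, percent) in each of the 12 libraries (horizontal axis), stacked by member. Ly6c2 takes 57.4% to 62.5% in the Ly6Chi libraries, and Ly6e takes 89.0% to 91.3% in the Ly6Clo libraries and 97.9% to 99.6% in the macrophage libraries. The monocyte groups were sorted on Ly6C protein.

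Between monocytes and macrophages every member called was higher in monocytes, and between both macrophage types no member passed the test. Counts were tested with DESeq2, with p adjusted over all genes tested and called under 0.05. Of the 6 members with an adjusted p, 5 were higher in Ly6Clo monocytes than in eYFP- macrophages, where 26.8% of all genes were called and 11% were called higher. The same number, 5 of 6, were higher in Ly6Clo monocytes than in eYFP+ macrophages (26.1% of genes called, 11.4% higher) and in Ly6Chi monocytes than in eYFP+ macrophages (28.7% called, 12.4% higher). In Ly6Chi monocytes against eYFP- macrophages 4 of 6 were higher (25.5% called, 10.4% higher). Ly6d, at few counts, was not called in any of these, and its mean was higher in the macrophages. These comparisons share their libraries in pairs and are not independent. In bulk samples, fewer cells of a type and less RNA per cell cannot be told apart.

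Ly6Chi against Ly6Clo monocytes gave 3 calls among 6 members, Ly6c1 higher and Ly6i and Ly6g lower, where 8.82% of all genes were called, 3.74% higher and 5.08% lower. These groups were sorted on Ly6C protein, so the Ly6c1 call checks the sort and is not a finding. The calls of Ly6i and Ly6g were not made by edgeR (adjusted p = 0.169 and 0.149). Between eYFP+ and eYFP- macrophages DESeq2 called 0 of 6 members, where 2.07% of all genes were called. Ly6i and Ly6g had an unadjusted p under 0.05 there, and edgeR's quasi-likelihood test also called 0 members, where it called 0.334% of genes. With the replicate number as a block the count was again 0.

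**Figure D2:**
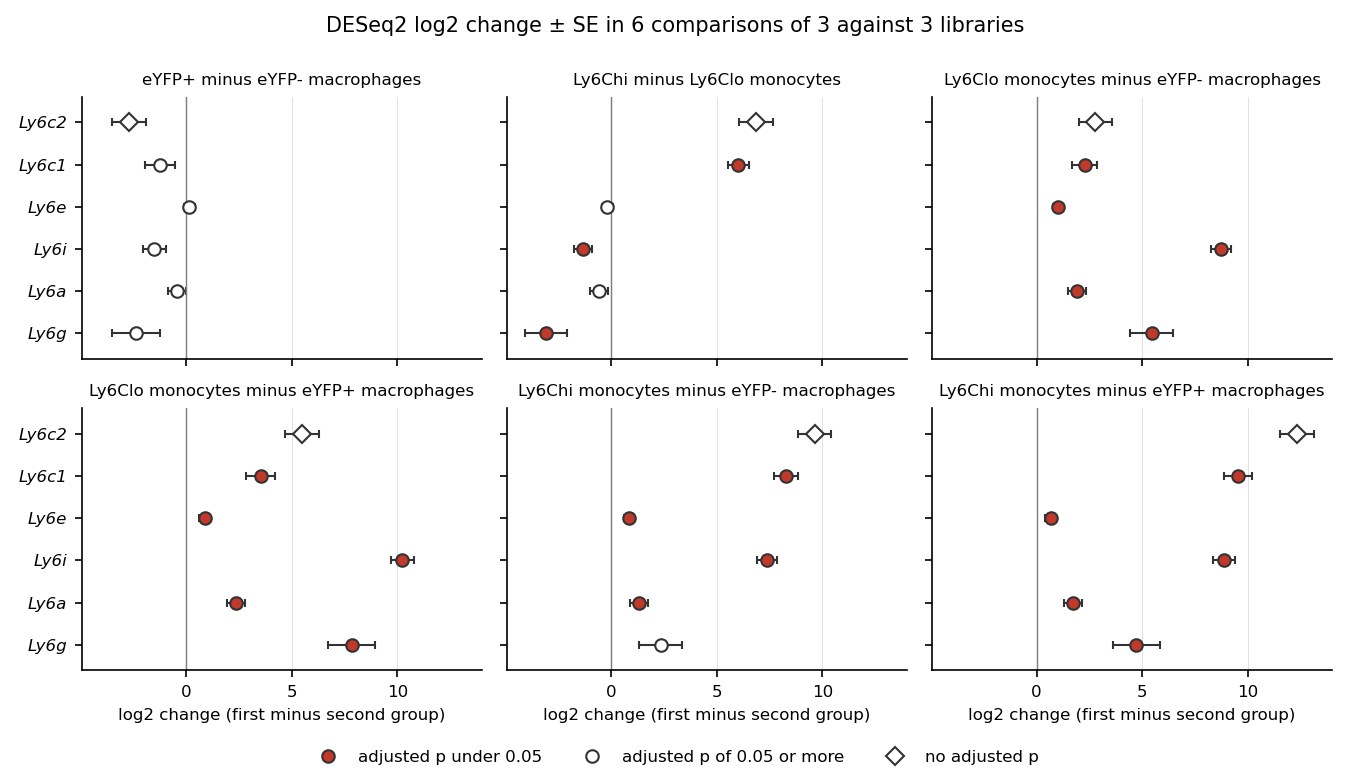
DESeq2 log2 change with its standard error (horizontal axis, first group minus second group) for 6 members in the 6 comparisons of 3 against 3 libraries. Red points passed the adjusted p of 0.05, white circles did not, and diamonds had no adjusted p. In the macrophage panel no point is red, while Ly6i reaches 10.24 in Ly6Clo monocytes against eYFP+ macrophages.

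Ly6c2, a gene of the Ly6C antigen, was one of the most abundant transcripts of Ly6Chi monocytes. Its levels there were 6963, 5966 and 5809 TPM, against 77.5, 32.4 and 55.6 TPM in Ly6Clo monocytes. The groups were far apart, as the sort on Ly6C protein requires, so this difference checks the sort and is not a finding. In eYFP- macrophages Ly6c2 was at 1.7, 23.0 and 2.92 TPM, and in eYFP+ macrophages at 0.231, 1.34 and 2.43 TPM. The macrophage groups overlapped, and replicate 2 was the high value of the eYFP- group. In each of the 3 same-numbered pairs eYFP+ was lower. Both macrophage groups lay below every Ly6Clo library. DESeq2 gave no adjusted p for Ly6c2 in any comparison, because 1 library weighed too heavily on the fit (Cook's distance). edgeR gave an adjusted p of 0.0352 for Ly6Clo monocytes over eYFP- macrophages (log2 change 2.77) and 0.00178 over eYFP+ macrophages (5.48). For eYFP+ against eYFP- macrophages the log2 change was -2.70 ± 0.81 in DESeq2, with an edgeR adjusted p of 0.361 and DESeq2 adjusted p-values of 0.1 with the replicate block and 0.0438 when Cook's cutoff was not used.

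The eYFP- library with the high Ly6c2 value also carried transcripts of other cells. Its Ly6Chi monocyte markers summed to 97.6 TPM, against 8.12 and 19.6 TPM in the other 2 eYFP- libraries and 5.53 to 7.36 TPM in eYFP+ macrophages. Its neutrophil and precursor markers summed to 2550 TPM, against 207.7 and 735.2 TPM. All 6 Ly6Chi markers and all 10 neutrophil markers had a value above 0 in that library, as they did in eYFP- replicate 3. The part of these cells in the Ly6c2 value was not tested. Without that library the summed Ly6c1 and Ly6c2 counts of eYFP+ and eYFP- macrophages differed by a log2 change of -0.90, with a DESeq2 adjusted p of 0.666.

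Ly6c1, the near-identical copy, followed the same order at a much lower level. It was at 121.8, 108.3 and 116.7 TPM in Ly6Chi monocytes and 2.43, 1.53 and 1.5 TPM in Ly6Clo monocytes, again a check of the sort. In macrophages it stayed between 0.0483 and 0.723 TPM. Both macrophage types were below every Ly6Clo library and overlapped each other. The log2 change was 2.28 ± 0.58 from eYFP- macrophages to Ly6Clo monocytes (adjusted p = 0.000648) and 3.53 ± 0.69 from eYFP+ macrophages (adjusted p = 3.6e-06). The call over eYFP- macrophages was lost in the DESeq2 fit of the 6 libraries of that comparison alone (adjusted p = 0.0981). Between the macrophages the log2 change was -1.25 ± 0.73 (adjusted p = 0.714), on means of 2.84 and 6.44 normalized counts.

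Summed over both copies, the normalized counts averaged 108481 ± 10803 (SD, n = 3) in Ly6Chi monocytes, 955.9 ± 335.8 in Ly6Clo monocytes, 140.6 ± 168.0 in eYFP- macrophages and 23.3 ± 15.7 in eYFP+ macrophages. DESeq2 again gave no adjusted p for the sum. edgeR placed the sum higher in Ly6Clo monocytes than in eYFP- macrophages (log2 change 2.75, adjusted p = 0.0281) and than in eYFP+ macrophages (5.35, adjusted p = 0.0014), and higher in Ly6Chi monocytes than in either (9.60, adjusted p = 7.4e-05, and 12.20, adjusted p = 2.24e-05). Between the macrophages edgeR gave -2.60 with an adjusted p of 0.333.

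Ly6c1 contributed a small share of these counts in all monocytes. In the Ly6Chi libraries the share was 1.76%, 1.83% and 2.02%, with 95% Wilson intervals from 1.69% to 2.12% in all, and in the Ly6Clo libraries it was 3.12%, 4.62% and 2.7%. All Ly6Clo shares lay above all Ly6Chi shares. The difference was -1.61 percentage points (exact two-sided permutation test p = 0.1, the smallest that 3 against 3 libraries allow; 0.4 adjusted over 6 pairs). In macrophages the share ran from 2.0% to 33.3% on sums of 6 to 449 counts, and its intervals were wide, up to 9.68% to 70.0%. The intervals of 3 macrophage libraries, eYFP+ replicates 1 and 2 and eYFP- replicate 3, lay above every monocyte interval, and those of the other 3 did not. Libraries of the same macrophage type disagreed, with 2.0% of 449 counts in eYFP- replicate 2 against 20.3% of 69 counts in replicate 3. With 3 against 3 libraries no pair of groups could pass the permutation test (adjusted p of 0.4 to 0.9). The intervals cover counting error only, since reads without molecular identifiers are not independent molecules.

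**Figure D3:**
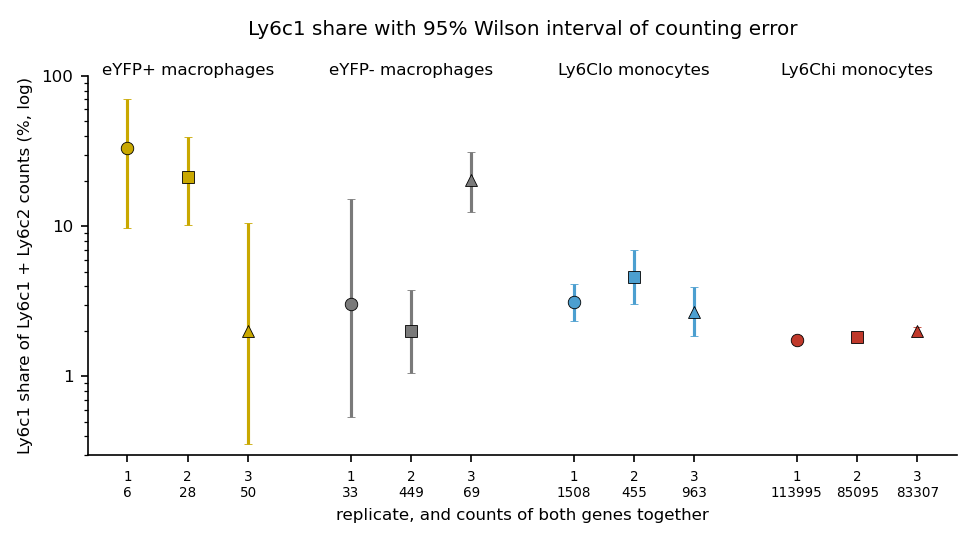
Share of Ly6c1 in the summed Ly6c1 and Ly6c2 counts (vertical axis, percent) in each library (horizontal axis), with 95% Wilson intervals as bars. The Ly6Chi libraries lie at 1.76% to 2.02% with narrow intervals, and the macrophage libraries spread from 2.0% to 33.3%.

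Ly6e was abundant in every cell type and had the smallest log2 changes of the 6 tested members between monocytes and macrophages. It reached 4465, 3910 and 4818 TPM in Ly6Clo monocytes and 3886, 3585 and 4002 TPM in Ly6Chi monocytes. It was at 2914, 2303 and 2343 TPM in eYFP+ macrophages and 2517, 2231 and 2287 TPM in eYFP- macrophages. Every monocyte library was above every macrophage library, while the monocyte groups overlapped each other in TPM, as did the macrophage groups. Ly6Clo monocytes had 2.01-fold more normalized counts than eYFP- macrophages (log2 change 1.01 ± 0.25, adjusted p = 0.000429) and 1.83-fold more than eYFP+ macrophages (0.87 ± 0.25, adjusted p = 0.00317). Ly6Chi monocytes had 1.77-fold more than eYFP- (adjusted p = 0.00632) and 1.59-fold more than eYFP+ macrophages (adjusted p = 0.0276). The last call was lost without eYFP+ replicate 2 (adjusted p = 0.136) or replicate 3 (0.163), eYFP- replicate 3 (0.0643) or any 1 of the Ly6Chi libraries (0.0688 to 0.116), and with no independent filtering, the step in which DESeq2 leaves genes of low mean count out of the adjustment (0.0579). The call over eYFP- macrophages was lost without eYFP- replicate 2 (0.0527) or replicate 3 (0.0512), and that of Ly6Clo monocytes over eYFP+ macrophages without eYFP+ replicate 3 (0.0612) and in the fit of the 6 libraries of that comparison alone (0.158). Between Ly6Chi and Ly6Clo monocytes the log2 change was -0.20 ± 0.25 (adjusted p = 0.719), and between the macrophages 0.14 ± 0.25 (adjusted p = 1). Neither passed the test, although in normalized counts, unlike TPM, every Ly6Chi library (161103 to 180503) was below every Ly6Clo library (185432 to 217862).

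Ly6i was a monocyte transcript, highest in the Ly6Clo cells. Its levels were 249, 394.4 and 324.8 TPM in Ly6Clo monocytes and 123.3, 108.9 and 144.6 TPM in Ly6Chi monocytes. In eYFP- macrophages it was at 0.792, 0.67 and 1.02 TPM, and in eYFP+ macrophages at 0, 0.564 and 0.317 TPM. No library of a lower group reached into a higher one, so the 4 groups stood in a single order. Ly6Clo monocytes were higher than eYFP- macrophages by a log2 change of 8.73 ± 0.47 (adjusted p = 3.21e-74) and than eYFP+ macrophages by 10.24 ± 0.53 (adjusted p = 6.3e-79). Ly6Chi monocytes were higher by 7.36 ± 0.47 (adjusted p = 5.15e-53) and 8.87 ± 0.53 (adjusted p = 1.85e-59). These 4 calls held in every alternative analysis.

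Within monocytes, Ly6i ran against Ly6C. Ly6Chi monocytes had 2.58-fold fewer normalized Ly6i counts than Ly6Clo monocytes (log2 change -1.37 ± 0.43, adjusted p = 0.0231). edgeR did not call this difference (adjusted p = 0.169), and DESeq2 lost it without Ly6Clo replicate 3 (0.0929), without eYFP- replicate 3 (0.0519) and without any 1 of the Ly6Chi libraries (0.0784 to 0.169). It was also lost with the replicate block (adjusted p = 0.142) and in limma on log2(TPM + 0.1) (0.211). With Ly6Clo replicate 2 and eYFP+ replicate 1, the libraries that stood apart, both left out, the log2 change was -1.16 and the adjusted p 0.000276. Between eYFP+ and eYFP- macrophages the change was -1.51 ± 0.56 (unadjusted p = 0.00732, adjusted p = 0.194), on means of 6.35 and 18.4 normalized counts.

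Ly6a, the gene of Sca-1, was measured in every library and was higher in monocytes. It was at 77.5, 36.5 and 58.8 TPM in Ly6Clo monocytes and 50.1, 23.9 and 38.0 TPM in Ly6Chi monocytes. eYFP- macrophages had 8.95, 20.9 and 20.8 TPM and eYFP+ macrophages 11.8, 13.7 and 10.2 TPM. Ranges overlapped within monocytes and within macrophages, but no macrophage library reached a monocyte library. The log2 change from eYFP- macrophages was 1.90 ± 0.42 to Ly6Clo monocytes (adjusted p = 5.94e-05) and 1.29 ± 0.42 to Ly6Chi monocytes (adjusted p = 0.0106). From eYFP+ macrophages it was 2.34 ± 0.42 (adjusted p = 3.63e-07) and 1.73 ± 0.42 (adjusted p = 0.000263). The difference between Ly6Chi monocytes and eYFP- macrophages was lost without eYFP- replicate 1 or Ly6Chi replicate 1, and in limma on log2(TPM + 0.1) (adjusted p = 0.0581) or on log2(TPM + 1) with no filter (0.117). Between the macrophages it was -0.44 ± 0.42 (adjusted p = 0.989), and between Ly6Chi and Ly6Clo monocytes -0.60 ± 0.42 (adjusted p = 0.434).

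Markers of other cells known to carry Sca-1 were measured beside these values. The 6 stem and progenitor markers summed to 4.6 to 10.9 TPM in eYFP+ macrophages, 46.2 to 106.0 TPM in eYFP- macrophages and 24.6 to 64.6 TPM in monocytes. The 6 endothelial markers summed to 10.4 to 39.7 TPM in eYFP- macrophages and to at most 5.23 TPM in the other groups. Cd34, a stem and endothelial marker, averaged 35.7 TPM in eYFP- and 1.49 TPM in eYFP+ macrophages. Macrophages were gated on CD45 and F4/80, and the part of stem, progenitor and endothelial cells in the Ly6a level was not tested.

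Ly6g was low in all groups for a neutrophil antigen, and highest in Ly6Clo monocytes. It was at 43.2, 19.8 and 21.2 TPM in Ly6Clo monocytes and 3.15, 2.31 and 4.17 TPM in Ly6Chi monocytes. eYFP- macrophages had 0.51, 1.65 and 0 TPM and eYFP+ macrophages 0, 0 and 0.39 TPM. The monocyte groups did not overlap, and the macrophage groups did. Ly6Clo monocytes were above eYFP- macrophages by a log2 change of 5.45 ± 1.01 (adjusted p = 1.14e-06) and above eYFP+ macrophages by 7.83 ± 1.11 (adjusted p = 5.66e-11). Ly6Chi monocytes were above eYFP+ macrophages by 4.72 ± 1.12 (adjusted p = 0.000189), while the change from eYFP- macrophages was 2.34 ± 1.02 (adjusted p = 0.0743). All 9 Ly6g counts of the eYFP+ macrophages came from replicate 3. Without it that group is at 0, and the fitted changes over it were 11.52 for Ly6Clo and 8.42 for Ly6Chi monocytes, which depend on the fit and are no bounds; both were called (adjusted p = 9.32e-10 and 1.35e-05). Without eYFP- replicate 2 the Ly6Chi change over eYFP- macrophages was 3.65 with an adjusted p of 0.00451.

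Ly6Chi monocytes had 8.57-fold fewer normalized Ly6g counts than Ly6Clo monocytes (log2 change -3.10 ± 0.99, adjusted p = 0.0256; edgeR 0.149). The call was lost when any 1 of the 6 monocyte libraries was left out (adjusted p of 0.0614 to 0.286), and with both libraries that stood apart left out (-3.27, adjusted p = 0.165). It was also lost with the replicate block (adjusted p = 0.101), with no independent filtering (0.0517) and in limma on log2(TPM + 0.1) (0.0968). The summed level of the neutrophil and precursor markers went the other way, with 23796, 15735 and 20454 TPM in Ly6Chi and 15968, 6758 and 8848 TPM in Ly6Clo monocytes. S100a8 had the highest mean among them, at 9470 TPM in Ly6Chi and 5069 TPM in Ly6Clo monocytes. By mean, Ltf, Retnlg and Cxcr2 were higher in Ly6Clo monocytes, and S100a8, S100a9, Mpo, Elane, Ngp, Camp and Mmp8 in Ly6Chi monocytes. Of single markers, Retnlg, a resistin-like gene of mature neutrophils, was at 97.2, 35.3 and 30.6 TPM in Ly6Clo and 0.862, 1.48 and 27.6 TPM in Ly6Chi monocytes. Mmp8, neutrophil collagenase, was at 52.6, 32.9 and 17.6 TPM in Ly6Clo and 144.0, 185.8 and 178.9 TPM in Ly6Chi monocytes. Monocytes were shown within the low Gr1 gate, and the part of neutrophils in the Ly6g level was not tested.

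Ly6d was close to absent. Its counts were 0, 37 and 6 in eYFP+ macrophages, 7, 36 and 0 in eYFP- macrophages, 0, 0 and 2 in Ly6Chi monocytes and 0, 4 and 0 in Ly6Clo monocytes. Replicate 2 of both macrophage types held most of them, and the groups overlapped. DESeq2 adjusted p ran from 0.231 to 1 over the 6 comparisons, and no fold is given at these counts. Among the 8 B cell and precursor markers, Cd79b, a subunit of the B cell receptor, was at 448.8 to 701.3 TPM in macrophages. The part of B-lineage cells in the Ly6d counts was not tested.

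**Figure D4:**
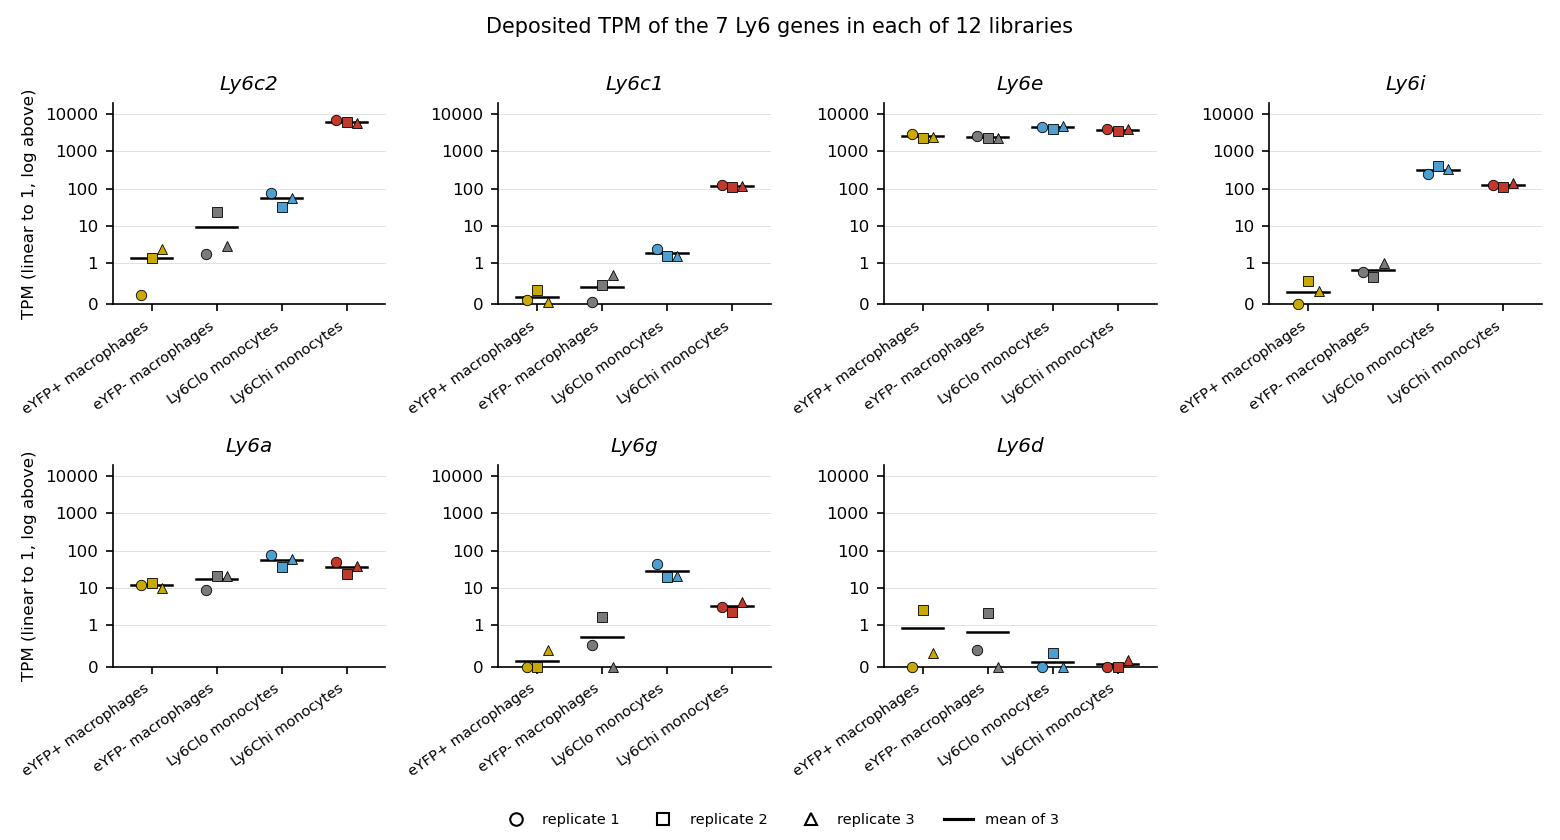
Deposited TPM (vertical axis, linear up to 1 and logarithmic above) of the 7 members in the 12 libraries, by group (horizontal axis), with a symbol for each replicate number and a line at the mean of 3. Ly6e lies between 2231 and 4818 TPM everywhere, and Ly6c2 runs from 0.231 TPM in an eYFP+ library to 6963 TPM in a Ly6Chi library.

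The genes most like each member across the 12 libraries were named by the smallest root mean square difference of centred log2 normalized counts, among 10916 genes with a symbol and a mean of at least 50 normalized counts. F13a1, the catalytic subunit of coagulation factor XIII, was nearest to Ly6c1 (0.845 log2 units), to Ly6c2 (1.42) and to their sum (1.3). Next to F13a1 came Myo1h and Tarm1 for Ly6c1, and Plcb1 and S100a4 for Ly6c2. Ly6i was nearest to Cd209a, a C-type lectin (1.18), then Hsd11b1 and Ip6k3. Ly6g was nearest to Ace, angiotensin-converting enzyme and one of the Ly6Clo monocyte markers (1.13), then Smpdl3b and Slc6a12. Ly6a was nearest to Tmc8 (0.333), Arhgef10 and Chmp2b, and the even Ly6e to Rpl34, a ribosomal protein (0.108), Pfdn5 and Med27. These distances are descriptions over libraries that share groups, with no test.

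Other proteins with the three-finger domain split between the cell types. A list of 43 relatives had 40 in the tables and 32 with a count, most of them at few counts. Of the 13 to 15 with an adjusted p in a monocyte against macrophage comparison, 2 or 3 were higher and 4 to 6 lower in monocytes. Of all genes tested, 15.8% and 14.7% were lower in Ly6Clo monocytes than in eYFP- and eYFP+ macrophages, and 15.1% and 16.3% in Ly6Chi monocytes. In the same order 11%, 11.4%, 10.4% and 12.4% of all genes tested were higher. The median log2 change of the relatives was -3.67 and -3.19 for Ly6Clo monocytes against eYFP- and eYFP+ macrophages, and -1.69 and -2.21 for Ly6Chi monocytes. Medians over all genes tested were -0.05, -0.10, -0.06 and -0.12. Between the macrophages 0 of 14 passed in DESeq2, where 2.07% of all genes were called, and 0 in edgeR, with 0 at an unadjusted p under 0.05. Between Ly6Chi and Ly6Clo monocytes 1 was higher and 2 lower of 14, where 3.74% of all genes were higher and 5.08% lower.

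Plaur, the urokinase receptor, was higher in monocytes, at 310.1, 1223 and 335.4 TPM in Ly6Clo and 382.2, 380.0 and 360.0 TPM in Ly6Chi cells, against 13.1 to 49.7 TPM in macrophages. The highest value was that of Ly6Clo replicate 2, which stood apart. Its log2 changes of 3.77 to 5.17 (each ± 0.62) over macrophages all passed the test. Cd59a, an inhibitor of complement lysis, was the reverse, with 12.4 to 22.7 TPM in macrophages, 0.652, 0.272 and 2.19 TPM in Ly6Clo and 0.0283, 0.065 and 0.0324 TPM in Ly6Chi monocytes. It was lower in Ly6Clo monocytes than in eYFP- macrophages (log2 change -4.00 ± 0.63, adjusted p = 6.99e-09) and lower in Ly6Chi than in Ly6Clo monocytes (-4.65 ± 0.96, adjusted p = 6.68e-05). Cd59b, its copy, was also lower in monocytes, by log2 changes of -3.19 to -4.62. Ly6g6d, from the family's cluster in the major histocompatibility region, was at 2.68 to 6.79 TPM in macrophages and had a count of 0 in all 6 monocyte libraries. Cd177, a neutrophil protein with this fold, was at 566.6, 576.9 and 612.3 TPM in Ly6Chi and 103.3, 74.6 and 63.8 TPM in Ly6Clo monocytes, and at 14.3 TPM in eYFP- replicate 2, the library with the high Ly6c2, against 0 to 0.526 TPM in the other macrophage libraries. DESeq2 gave Cd177 no adjusted p, and edgeR put it higher in Ly6Chi monocytes than in eYFP- macrophages (adjusted p = 0.0107) but not in Ly6Chi than in Ly6Clo monocytes (0.286).

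**Figure D5:**
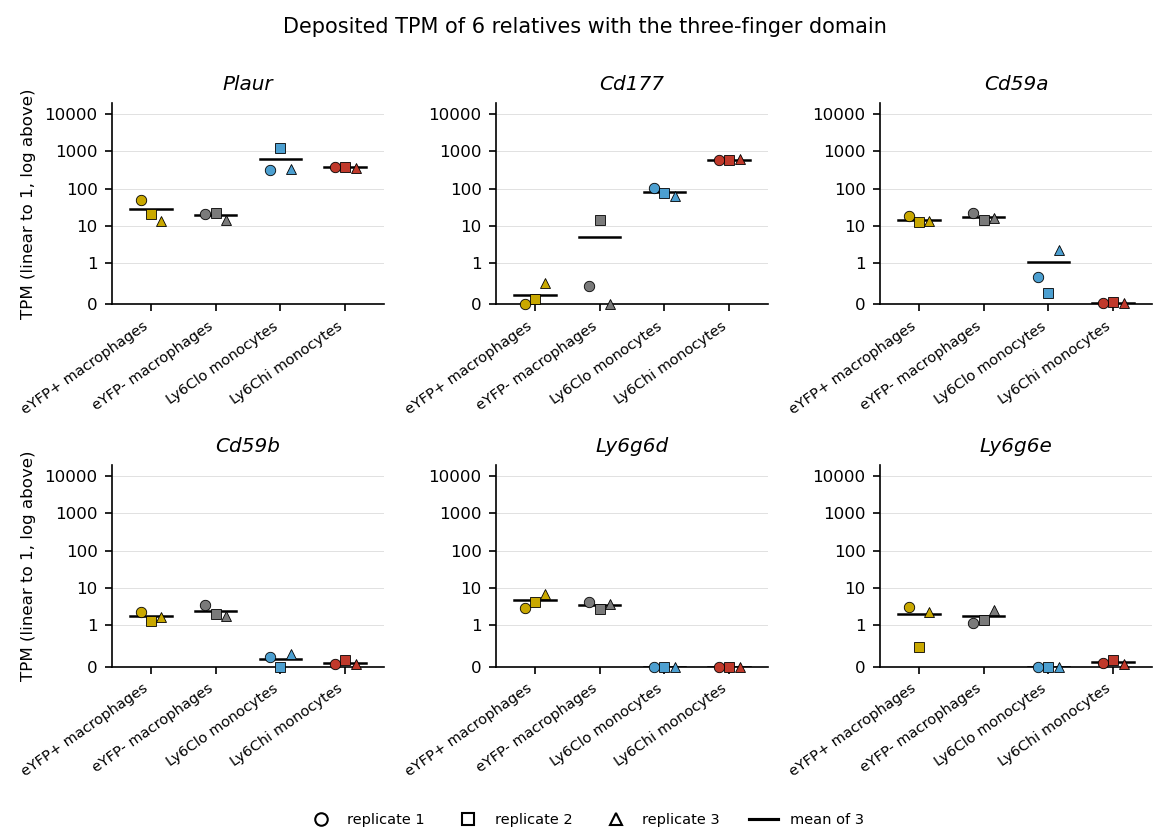
Deposited TPM (vertical axis, linear up to 1 and logarithmic above) of 6 relatives with the three-finger domain by group (horizontal axis), with a symbol for each replicate number and a line at the mean of 3; these 6 were chosen after their values were seen. Plaur and Cd177 are highest in monocytes, and Cd59a, Cd59b, Ly6g6d and Ly6g6e are highest in macrophages.

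The enzymes that make and remodel the GPI anchor, needed by the whole family, were looked at as a second list. Of 33 listed genes, 32 were in the tables and all 32 were tested. Between eYFP+ and eYFP- macrophages 0 passed in DESeq2 and 0 in edgeR, and Pgap1, Pgap4 and Pigg had an unadjusted p under 0.05. In Ly6Clo monocytes 1 was higher and 6 lower than in eYFP- macrophages, and 1 was higher and 7 lower than in eYFP+ macrophages. In Ly6Chi monocytes 0 were higher, and 5 and 6 were lower. Over all genes tested the lower calls were 15.8%, 14.7%, 15.1% and 16.3% in the same 4 comparisons, and the higher calls 11%, 11.4%, 10.4% and 12.4%. Nothing particular to the list is read from its counts. Median log2 changes were small, from -0.12 to -0.19. Pigp, a subunit of the enzyme of the initial step, was at 3.86, 4.13 and 3.82 TPM in Ly6Chi and 11.5, 16.8 and 10.5 TPM in Ly6Clo monocytes, against 26.3 to 45.3 TPM in macrophages. It was lower in Ly6Chi monocytes than in eYFP- macrophages by -3.09 ± 0.37 (adjusted p = 4.39e-15) and than in Ly6Clo monocytes by -1.72 ± 0.38 (adjusted p = 0.000195). Pigh, another subunit of that enzyme, was lower in both monocyte groups, by -1.04 ± 0.36 and -1.06 ± 0.36 against eYFP- macrophages. Pgap1, which removes an acyl chain from the new anchor, was at 1.66, 1.53 and 1.11 TPM in Ly6Clo and 4.73, 5.66 and 5.07 TPM in Ly6Chi monocytes, and was higher in Ly6Chi by 1.85 ± 0.35 (adjusted p = 7.17e-06). Pigx, a partner of a mannosyltransferase, was the gene higher in Ly6Clo monocytes (log2 change 1.66 ± 0.41 over eYFP- macrophages, adjusted p = 0.000388), and its highest value was 242.9 TPM in Ly6Clo replicate 2, against 111.1 and 110.0 TPM in the other 2.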

How the data were processed

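Full-length cDNA was amplified from polyadenylated RNA of sorted cells, without molecular identifiers, and read from both ends. As their methods describe, the authors trimmed and corrected reads, took out ribosomal RNA, aligned to GRCm39 with segemehl and deposited counts of unambiguous read pairs per Ensembl gene from featureCounts; use of strand is not stated. The authors also deposited TPM values, which divide by gene length and are used here for levels. Every log2 value was computed here from the deposited counts. A table of the authors' own comparisons was not used. Symbols came from GENCODE M21 (91.4% of identifiers).

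The main test was that of the study, DESeq2 (1.42.0, run in R 4.3.3), with all 12 libraries in 1 model of group and adjusted p under 0.05 over all genes tested, and beside it with edgeR 4.0.16 (quasi-likelihood test). Limma 3.58.1 was run on log2(TPM + 1) and log2(TPM + 0.1). The alternatives were other scalings, at least 10 counts in at least 3 libraries, leaving out independent filtering or Cook's cutoff, a fold of at least 2, only the 6 libraries of a comparison, the replicate number as a block, and each library left out. Leaving out both libraries that stood apart, and the summed row without Cook's cutoff, without eYFP- replicate 2 or with the block, were chosen after seeing the data. The scripts were tested on simulated data.

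Sample titles gave the group and the replicate number. Deviations of same-numbered eYFP+ and eYFP- libraries from their group means correlated by 0.458, 0.338 and 0.151 over the 2000 genes of highest mean. Of these 6 libraries, 4 were closest to their own number. Nothing in the labels states that they are pairs, so the main tests used group only, with the replicate number as a block in an alternative. All members are named; for each with a mean of at least 50 normalized counts the 3 most alike genes are named, and from the lists of relatives, anchor enzymes and cell markers some of the called genes and the markers of the cell each member is known for. Members and lists were chosen with earlier results of these data known. Sequences were read with Python 3.11.15 and Biopython 1.88 from GENCODE M21 and RefSeq tables on GRCm38.p6. The result of 1 marker gene is not reported here.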

Additional observations from a re-analysis of the deposited data

How the results depend on the processing

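Over 25 alternatives per comparison, 15 of the 22 called member results were called in every one, 7 were lost in at least 1, and 0 changed direction. Among results that were not called, Ly6e between eYFP+ and eYFP- macrophages changed direction to -0.06 without eYFP+ replicate 1 (0.27 without eYFP- replicate 1) and to -0.07 with both libraries that stood apart left out. Members called between eYFP+ and eYFP- macrophages rose from 0 to 1 (Ly6c2) with total-count scaling and with no Cook's cutoff, and ran from 0 to 1 when 1 library was left out: Ly6c2 without eYFP- replicate 1 or 3, Ly6i without Ly6Clo replicate 2 or eYFP+ replicate 2, Ly6g without eYFP+ replicate 3. Between Ly6Chi and Ly6Clo monocytes that count ran from 1 to 4, with 1 (Ly6c1) without Ly6Clo replicate 3 or any Ly6Chi replicate. Ly6c1 in Ly6Clo monocytes over eYFP- macrophages was lost in the fit of the 6 libraries alone (adjusted p = 0.0981), as was Ly6e in Ly6Clo monocytes over eYFP+ macrophages (0.158). With both libraries left out, Ly6d was called lower in Ly6Clo monocytes than in both macrophage types. A fold of at least 2 removed Ly6e from 3 comparisons.

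The summed Ly6c1 and Ly6c2 row had no adjusted p in DESeq2. For Ly6Chi minus Ly6Clo, Ly6Clo minus eYFP-, Ly6Clo minus eYFP+, Ly6Chi minus eYFP- and Ly6Chi minus eYFP+ in turn, the log2 change was 6.86, 2.75, 5.35, 9.60 and 12.20 in edgeR, 6.83, 2.76, 5.35, 9.59 and 12.18 with no Cook's cutoff, 6.75, 3.24, 5.61, 9.99 and 12.35 with the replicate block, and 6.83, 4.44, 5.34, 11.26 and 12.17 without eYFP- replicate 2, and all of these were called. For eYFP+ minus eYFP- the change of -2.59 was called with no Cook's cutoff (adjusted p = 0.0393), and was -2.36 (adjusted p = 0.092) with the block. The Ly6c1 share of Ly6Clo monocytes minus eYFP- macrophages, -4.96 percentage points, became 0.96 without eYFP- replicate 3 and -8.18 without eYFP- replicate 2.

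The deposited sample numbers run in sequence by replicate across all 4 groups, and what this order stands for is not stated. Between monocytes, deviations of same-numbered libraries correlated by 0.297, 0.0324 and -0.00568, and 3 of 6 libraries were closest to their own number. There the replicate block gave 2 calls, Ly6c1 and Ly6c2, in place of 3, and added Ly6c2 in each comparison with macrophages. In macrophages the values of Ly6d, Ly6c1 and Ly6g rest on few counts. The causes of these changes were not tested.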
